A study of Mus musculus with 12 samples.

Results

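The heterogeneous nuclear ribonucleoprotein (hnRNP) and serine/arginine-rich (SR) genes were followed in spinal cord of mice that had lost Tardbp in cells expressing Gfap-Cre. Tardbp encodes TDP-43, itself an hnRNP-like RNA-binding protein. Members were the genes whose symbol starts with Hnrnp, or is Srsf followed by a number, that averaged at least 1 TPM (a measure of RNA abundance per transcript length) over 12 mice. The rule kept 31 genes of the 36121 rows in the deposited table, of which 20 were hnRNP genes and 11 were SR genes. It matched 35 rows. Of these, 2 were pseudogene entries marked -ps and were left out, none fell below 1 TPM, and 2 were repeat rows of Hnrnpu and Srsf1 that held the same values as the row used.

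hnRNP proteins coat newly made RNA, and many of them repress the use of splice sites, retain RNA in the nucleus or steer its transport and stability. SR proteins bind exons through RNA recognition motifs and recruit the splicing machinery through a domain rich in arginine and serine, so that the families often oppose each other at the same exon. Members of both families limit their own output by splicing in exons or introns that send the transcript to nonsense-mediated decay. TDP-43 binds RNA rich in UG repeats and represses nearby splice sites. The comparison asks whether the levels of these relatives differed where Tardbp was lost.

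The series measured RNA from spinal cord of 3-month-old C57BL6 mice in 3 groups of 4. The cKO mice carried Gfap-Cre and Tardbp-fl/fl, the cHet mice carried Gfap-Cre and Tardbp-fl/+, and the control mice carried Tardbp-fl/fl with no Cre. Each group held 2 mice labelled male and 2 labelled female. In cKO and cHet mice the deletion is limited to cells in which the Gfap promoter drives Cre, chiefly astrocytes, and the tissue sequenced was the whole cord with its other cell types. Controls carried no Cre, so carrying Cre and losing Tardbp cannot be told apart in either comparison with control, whereas cKO and cHet mice both carried Cre. Which exons the floxed allele removes is not given in the sources used here.

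Values were the authors' normalized TPM, whose library totals ran from 1017860 to 1048380 in cKO, from 983452 to 1023990 in cHet and from 954895 to 978621 in control mice. TPM keeps no read depth, so the depth behind each value is unknown. The pairwise correlation of libraries ran from 0.980 to 0.987 across genes, which are not independent replicates. A control library stood against its label: control replicate 1, labelled male, had 2.49 TPM summed over 4 Y-linked genes, within the 2.48 to 4.27 TPM of the 6 libraries labelled female, whereas the other 5 labelled male had 93.6 to 120.2 TPM. Its mouse cannot be identified from these values, so counts of called genes that involve control mice are also given without it. Markers of neurons, oligodendrocytes and astrocytes were abundant in all 12 libraries. The summed Schwann cell markers reached 1.07 TPM in cKO, 4.24 TPM in cHet and 5.50 TPM in control mice.

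Promoter sequences are shown for 4 of the 5 members that passed the test between cKO and control mice, so that their gene starts can be compared; the RefSeq window of the fifth, Hnrnpdl, lies inside the GENCODE gene and is left out. Each run is the 250 bases before the RefSeq gene start (GRCm38.p6), written 5′ to 3′ on the gene's strand. Capitals mark GGGCGG, the core of the GC box, or its reverse complement, and CCAAT or its reverse complement. The windows were chr5:115326927-115327176 (plus strand) for Srsf9, chr13:58128557-58128806 (minus strand) for Hnrnpa0, chr1:178337816-178338065 (minus strand) for Hnrnpu and chr11:50376740-50376989 (plus strand) for Hnrnph1.
Srsf9: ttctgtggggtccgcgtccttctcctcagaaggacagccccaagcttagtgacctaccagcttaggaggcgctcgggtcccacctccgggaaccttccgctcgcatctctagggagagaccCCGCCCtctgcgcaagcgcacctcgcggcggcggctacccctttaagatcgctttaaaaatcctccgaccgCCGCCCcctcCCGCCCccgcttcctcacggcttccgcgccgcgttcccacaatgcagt
Hnrnpa0: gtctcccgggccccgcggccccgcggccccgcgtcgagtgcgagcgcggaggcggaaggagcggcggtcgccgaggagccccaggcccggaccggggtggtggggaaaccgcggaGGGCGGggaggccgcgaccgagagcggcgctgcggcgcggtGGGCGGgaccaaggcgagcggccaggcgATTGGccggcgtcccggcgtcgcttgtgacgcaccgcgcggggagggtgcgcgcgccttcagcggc
Hnrnpu: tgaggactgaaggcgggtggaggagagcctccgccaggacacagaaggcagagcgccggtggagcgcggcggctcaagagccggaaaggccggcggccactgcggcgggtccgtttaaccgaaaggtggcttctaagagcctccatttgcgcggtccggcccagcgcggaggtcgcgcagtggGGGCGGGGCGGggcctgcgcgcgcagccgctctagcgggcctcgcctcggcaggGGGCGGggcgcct
Hnrnph1: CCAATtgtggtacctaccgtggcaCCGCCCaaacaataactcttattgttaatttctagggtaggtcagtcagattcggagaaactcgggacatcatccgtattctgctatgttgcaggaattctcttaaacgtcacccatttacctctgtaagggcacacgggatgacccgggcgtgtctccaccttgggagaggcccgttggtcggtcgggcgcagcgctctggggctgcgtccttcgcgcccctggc

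All 4 windows held GGGCGG on either strand, and those of Hnrnpa0 and Hnrnph1 also held CCAAT. A RefSeq promoter was found for 29 of the 31 members. GGGCGG was present in 23 of the 29 (79.3%), against 32.9% of all 27025 promoters of the same length, and CCAAT in 15 (51.7%), against 34.5%. TATAAA was present in 3 members (10.3%), against 13.0% of all promoters, CACGTG in 2 (6.90%), against 6.05%, and TGACGTCA in 0, against 1.62%. Both strands were searched for each motif. All promoters were not limited to genes tested here, so the shares do not set members against other genes expressed in the cord. Members took the RefSeq start nearest the GENCODE start, and all promoters the first start listed for each gene. The RefSeq start of 7 members lay more than 100 bases inside the GENCODE gene. Among the other 22, GGGCGG was present in 18 (81.8%) and CCAAT in 12 (54.5%); the windows of all promoters were not sorted in this way. The members' windows had a median GC content of 65.2%, against 52% for all promoters. Hnrnpa0, with 81.2%, was the richest in GC and Hnrnpa1, with 46%, the poorest. The GC box stood before members that rose and before members that fell alike.

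UG repeats are shown for the called members and for Hnrnpr, because they are the sequence that TDP-43 is known to bind. The runs come from the longest coding transcript of each gene in GENCODE M21 (GRCm38), written as DNA 5′ to 3′ with TG repeats of at least 6 bases in capitals. The windows lay at chr13:58128538-58128556 (minus strand, 5′ UTR of Hnrnpa0), chr13:58126074-58126096 (minus strand, 3′ UTR of Hnrnpa0), chr5:100034757-100034778 (minus strand, 3′ UTR of Hnrnpdl), chr1:178328212-178328233 (minus strand, 3′ UTR of Hnrnpu), chr11:50378293-50378314 (plus strand, 5′ UTR of Hnrnph1) and chr4:136351605-136351633 (plus strand, 3′ UTR of Hnrnpr).
Hnrnpa0 5′ UTR: ctcttTGTGTGgtgtcccg
Hnrnpa0 3′ UTR: gaagcagcTGTGTGTactggggt
Hnrnpdl 3′ UTR: tttttattTGTGTGgtttcatg
Hnrnpu 3′ UTR: actttaagTGTGTGctttctgg
Hnrnph1 5′ UTR: ccgcaatcTGTGTGgacgccag
Hnrnpr 3′ UTR: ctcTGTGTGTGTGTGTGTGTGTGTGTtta

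Such a run (TGTGTG or longer, sense strand only) was present in 26 of the 31 members (83.9%), against 74.2% of 14286 tested protein-coding genes. The median length of the transcript searched was 2847 bases in members and 3150.5 bases in all these genes. In the transcript searched, the called members carried short runs of 6 or 7 bases, and Srsf9, which rose, carried none. Introns were not searched, so runs there are not counted. Longer runs were found in Hnrnpd (42 bases, 3′ UTR), Hnrnph2 (37 bases, 5′ UTR) and Hnrnpr (23 bases, the longest of its 13 runs). The Hnrnpr transcript searched was long, with 21452 bases. Of all runs in members, 41 lay in 3′ UTRs, 8 in 5′ UTRs and 11 in coding sequence. A run is a description of the annotated transcript, and binding was not measured.

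The annotation also shows the families' decay isoforms. GENCODE M21 lists at least 1 transcript marked for nonsense-mediated decay in 19 of the 31 members (61.3%), against 27.4% of 14318 tested protein-coding genes. The share was 9 of 11 (81.8%) in SR genes and 10 of 20 (50%) in hnRNP genes. A retained-intron transcript was listed in 22 members (71.0%), against 56.1% of those genes. Members also had more annotated transcripts, with a median of 7 against 5. Among the called members, Hnrnpu (3 transcripts), Hnrnpdl (2) and Srsf9 (1) had decay transcripts listed, and Hnrnpa0 and Hnrnph1 had none. The values here are summed per gene, so a shift between productive and decay isoforms of a gene was not measured.

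Both families were abundant in the cord, and their levels spread widely between genes. Among hnRNP genes the highest over the 12 mice were Hnrnpa2b1 (623.1 TPM), which carries RNA granules including myelin basic protein mRNA, Hnrnpk (279.9 TPM), a binder of C-rich RNA with KH domains, and Hnrnph1 (269.4 TPM), a binder of G runs. The lowest were Hnrnpll (30.4 TPM), best known for CD45 splicing in lymphocytes, Hnrnpul1 (38.1 TPM), linked to the DNA damage response, and Hnrnpr (54.0 TPM), linked to mRNA transport in axons. Among SR genes the highest were Srsf5 (367.7 TPM), Srsf11 (157.5 TPM) and Srsf2 (121.2 TPM), the nuclear speckle protein SC35. The lowest were Srsf12 (14.5 TPM), Srsf9 (44.8 TPM) and Srsf4 (50.2 TPM). TPM is scaled for length, so these levels may be compared between genes, but hnRNP genes with near-identical copies, such as Hnrnpa1 with its processed pseudogenes and the pair Hnrnph1 and Hnrnph2, depend on how reads were assigned.

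The spread between mice of a group was small for these genes. The coefficient of variation had a median over the 31 members of 4.11% in cKO, 4.89% in cHet and 3.40% in control mice. It ran from 1.37% (Srsf5) to 8.59% (Srsf3) in cKO, from 1.66% (Hnrnpa3) to 11.3% (Hnrnpd) in cHet and from 0.648% (Hnrnpf) to 7.47% (Srsf12) in control mice. If the technical variance in the authors' deposited tables is on the natural log scale, which they do not state, the members' estimation error for cKO against control ran from 0.986% to 6.78%, with a median of 2.17% and the highest value for Srsf12.

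**Figure D1:**
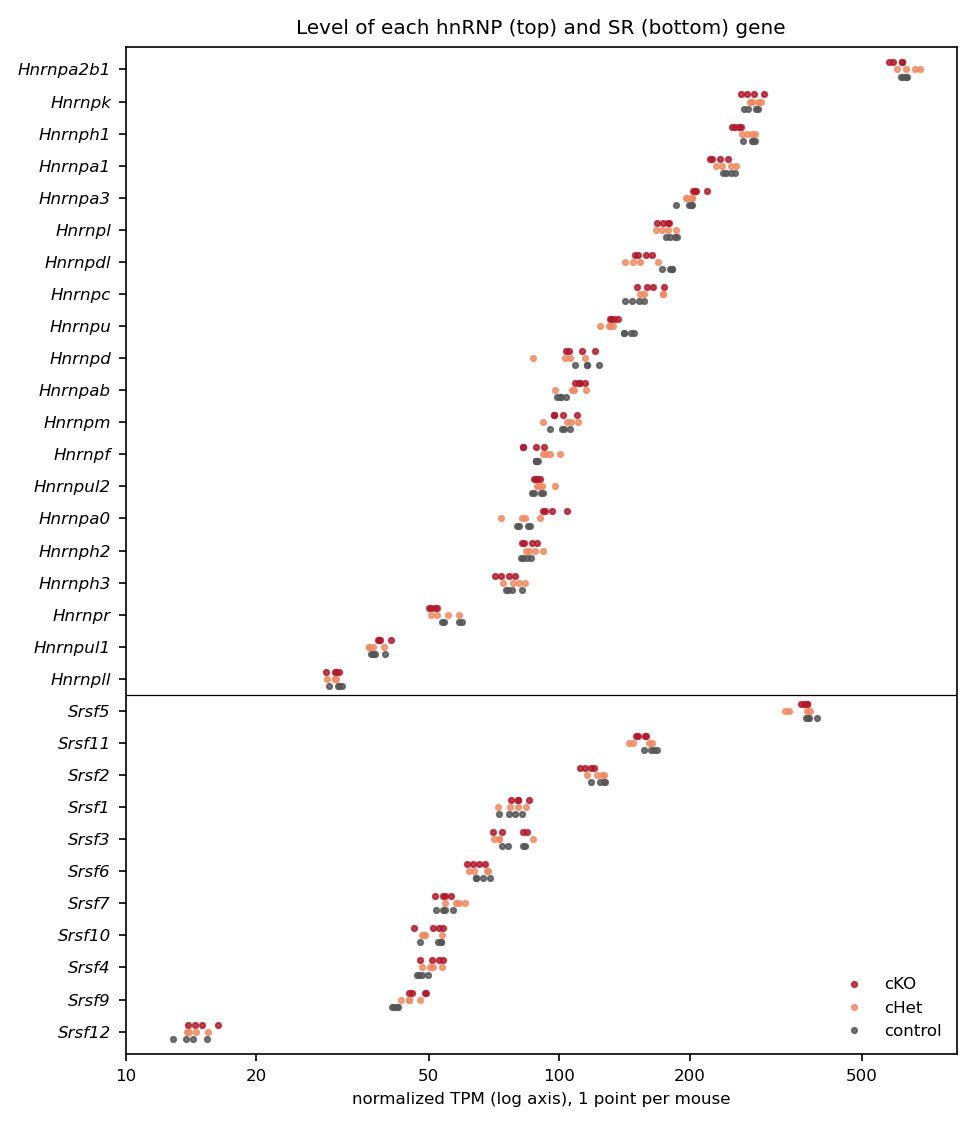
Level of each of the 31 genes in normalized TPM on a log axis, with 1 point per mouse and cKO above cHet above control in each row. Levels ran from 14.5 TPM for Srsf12 to 623.1 TPM for Hnrnpa2b1 on average over the 12 mice, and for most genes the 3 groups overlap.

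Tardbp itself fell in cKO mice. Its level was 150.3, 150.2, 151.2 and 140.5 TPM in cKO mice, 178.1, 173.4, 171.9 and 158.0 TPM in cHet mice and 180.6, 167.1, 168.7 and 166.1 TPM in control mice. All cKO mice were below all others, while cHet and control mice overlapped. The log2 change was -0.20 ± 0.04 (SE) for cKO against control (limma, Benjamini-Hochberg adjusted p = 0.0113) and -0.20 ± 0.04 for cKO against cHet (adjusted p = 0.0158, lost without cKO replicate 4, where it was 0.0522). For cHet against control it was -0.00 ± 0.04 (adjusted p = 0.984), with a 95% interval from -6.37% to 6.37%, and its sign turned when cHet replicate 4 or control replicate 1 was left out. In whole cord, fewer cells of a type and less RNA per cell cannot be told apart.

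Between cKO and control mice, 5 of the 31 members (16.1%) passed the test, against 9.00% of all 15259 genes tested. Srsf9 and Hnrnpa0 rose, 2 of the 31, a share close to the 5.75% of all genes called higher. Hnrnpdl, Hnrnpu and Hnrnph1 fell, 3 of the 31, a larger share than the 3.25% called lower. The calls were 4 of 20 hnRNP genes and 1 of 11 SR genes. Changes in whole cord were small in every member: the log2 change ran from -0.20 to 0.22, with a median of -0.02, against 0.01 over all genes, and 11 members had a positive and 20 a negative value. At an unadjusted p under 0.05 there were 9 of the 31 members, a larger share than the 22.8% of all genes. Without control replicate 1 the test called 2 members, Hnrnph1 (adjusted p = 0.0290) and Srsf9 (adjusted p = 0.039). These were 6.45% of the members, against 6.82% of all genes called without that library. There the share of members called was no longer above that of all genes. Leaving out any 1 of the 8 libraries gave 0 to 3 called members, while 814 to 1143 of all genes were called. No member remained when cKO replicate 2, cKO replicate 3 or control replicate 2 was the one left out.

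Of the A/B and D group, Hnrnpa0 rose. The gene, at chr13:58125879-58128556 (minus strand, GRCm38), encodes a binder of AU-rich elements in mRNAs of inflammatory genes. Hnrnpa0 had 92.9, 96.5, 91.7 and 104.1 TPM in cKO mice, 73.5, 82.1, 83.4 and 90.4 TPM in cHet mice and 84.8, 85.7, 80.6 and 80.1 TPM in control mice. Each cKO mouse was above each mouse of the other groups. The log2 change against control was 0.22 ± 0.06 (SE), or 16.3% between the means, with limma adjusted p = 0.0407. This call was lost in 14 of 20 alternative settings, among them leaving out control replicate 1 (adjusted p = 0.0652), with no change of sign.

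Hnrnpdl, a close relative of Hnrnpd that acts in splicing and mRNA stability and is mutated in a human limb-girdle muscular dystrophy, fell. The gene lies at chr5:100033577-100039664 (minus strand). It had 158.4, 151.7, 149.4 and 164.0 TPM in cKO mice, 141.7, 147.9, 168.8 and 153.3 TPM in cHet mice and 182.3, 179.9, 173.1 and 182.3 TPM in control mice. All cKO and all cHet mice were below all control mice, and cKO and cHet mice overlapped. The log2 change of cKO against control was -0.20 ± 0.05 (limma adjusted p = 0.0249), and the call was lost in 6 of 20 alternative settings, among them leaving out control replicate 1 (adjusted p = 0.0612).

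The other A/B and D members did not pass. Hnrnpab, which binds the trafficking element of myelin and neuronal mRNAs, averaged 111.6 ± 2.29 TPM in cKO and 101.1 ± 2.01 TPM in control mice (SD, n = 4 each). Its 4 cKO mice were all above its 4 control mice, with a log2 change of 0.14 ± 0.04 and a limma adjusted p of 0.0628; it was called when only the 8 mice of the comparison were fitted. Hnrnpa3, another trafficking factor, averaged 209.0 ± 6.88 TPM in cKO and 197.3 ± 7.64 TPM in control mice, again without overlap (log2 change 0.08 ± 0.03, limma adjusted p = 0.156). Hnrnpa2b1, the most abundant member, averaged 599.9 ± 21.0 TPM in cKO, 643.5 ± 34.1 TPM in cHet and 625.9 ± 8.97 TPM in control mice. Its groups overlapped, and its adjusted p was 0.38 for cKO against control in limma.

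Of the F/H group, which binds runs of G, Hnrnph1 (chr11:50376990-50386528, plus strand) fell. It had 255.0, 259.4, 262.8 and 250.3 TPM in cKO mice, 282.9, 278.6, 264.1 and 271.7 TPM in cHet mice and 265.8, 279.2, 280.5 and 283.0 TPM in control mice. The cKO mice lay below every mouse of both other groups. The log2 change against control was -0.11 ± 0.03 (limma adjusted p = 0.0422), lost in 10 of 20 alternative settings with adjusted p up to 0.119. Its paralogs Hnrnpf, Hnrnph2 and Hnrnph3 had log2 changes of -0.04, 0.03 and -0.05 and were not called.

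Hnrnpu, the scaffold attachment factor that ties RNA to chromatin, fell. The gene lies at chr1:178321108-178337797 (minus strand). It had 137.0, 131.2, 134.1 and 131.9 TPM in cKO mice, 130.3, 124.1, 131.4 and 133.4 TPM in cHet mice and 141.2, 148.5, 146.2 and 141.5 TPM in control mice. As for Hnrnpdl, all cKO and all cHet mice lay below the control mice. The log2 change of cKO against control was -0.11 ± 0.03 (limma adjusted p = 0.0389), lost in 9 of 20 alternative settings, among them leaving out control replicate 1 (adjusted p = 0.0515). Hnrnpr, which was not called, averaged 51.2 ± 0.971 TPM in cKO and 56.6 ± 3.14 TPM in control mice (SD, n = 4 each) without overlap (log2 change -0.14 ± 0.05, limma adjusted p = 0.106). Hnrnpul1 and Hnrnpul2, relatives of Hnrnpu, had log2 changes of 0.05 and -0.01.

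Among the SR genes Srsf9 alone was called, and it rose. Srsf9 encodes a small SR protein, SRp30c, close in sequence to Srsf1, from chr5:115327177-115333080 (plus strand). It had 45.8, 48.9, 49.3 and 45.1 TPM in cKO mice, 45.0, 47.8, 45.1 and 43.2 TPM in cHet mice and 42.4, 41.1, 42.4 and 41.6 TPM in control mice. All cKO and all cHet mice were above all control mice. The log2 change of cKO against control was 0.17 ± 0.04, or 13.0% between the means (limma adjusted p = 0.0204), and the call was lost in 5 of 20 alternative settings. Srsf1 had a log2 change of 0.06 ± 0.05 (limma adjusted p = 0.565). Srsf2 had the lowest log2 change of the family, with 116.4 ± 3.90 TPM in cKO and 124.4 ± 4.23 TPM in control mice and a log2 change of -0.09 ± 0.04 (limma adjusted p = 0.153).

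**Figure D2:**
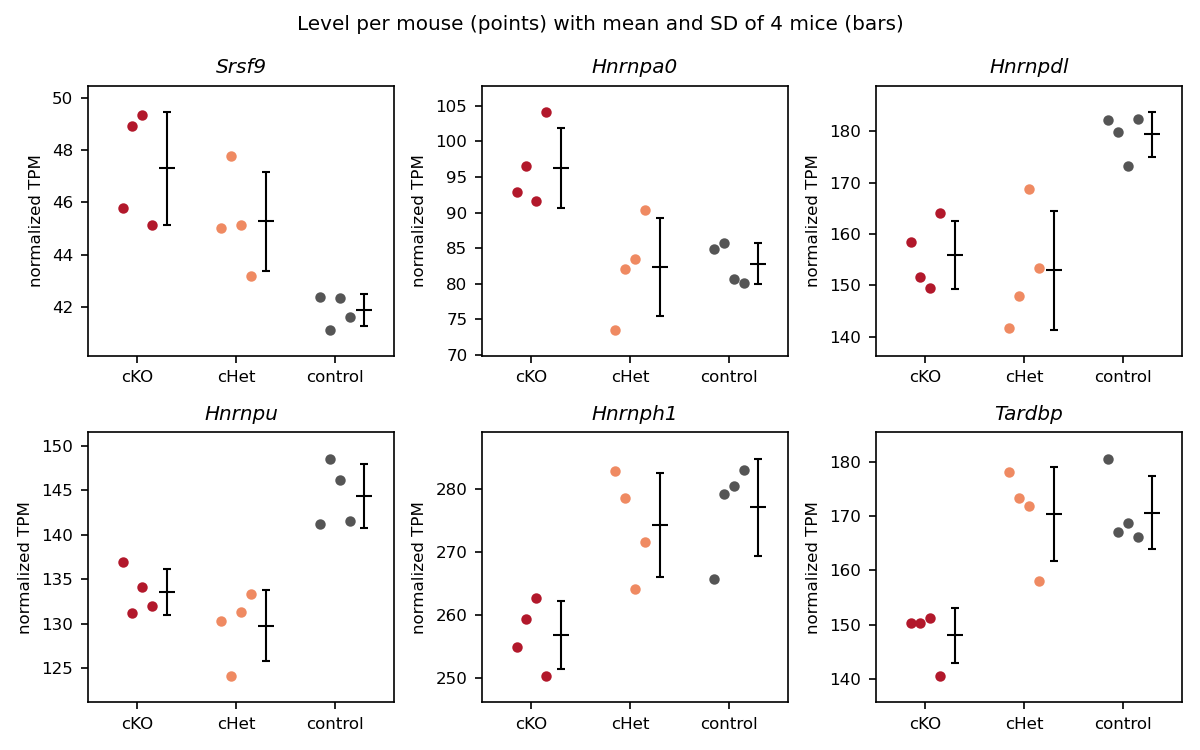
Normalized TPM per mouse (points) with mean and SD of 4 mice (bars) for the 5 called members and Tardbp, with cKO left of cHet left of control and vertical axes that do not start at 0. Srsf9 and Hnrnpa0 lie higher in cKO than in control mice, Hnrnpdl, Hnrnpu, Hnrnph1 and Tardbp lie lower, and for Srsf9, Hnrnpdl and Hnrnpu the cHet mice also lie apart from control.

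In all, 8 members (25.8%) did not overlap between cKO and control mice, 4 higher (Hnrnpa0, Hnrnpa3, Hnrnpab and Srsf9) and 4 lower (Hnrnpdl, Hnrnph1, Hnrnpr and Hnrnpu), against 17.1% of all genes, 10.5% higher and 6.59% lower. Without control replicate 1, when 4 mice are set against 3, it was 11 members (35.5%) against 21.9% of all genes. The limits of the differences in whole cord were narrow. They do not limit the change within the cells that lost Tardbp. Tardbp itself fell by only 13.2% between the whole-cord means, and its fall within those cells was not measured. For 30 of the 31 members the unadjusted 95% interval of the change between cKO and control lay within 20% in either direction. The lowest bound was -19.4% (Hnrnpdl) and the highest 26.9% (Hnrnpa0). No member's log2 change reached 0.25 in size in any of the 3 comparisons.

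The deposited scaling bears on these directions. Library totals averaged 1031670 ± 12645 in cKO, 1002460 ± 18688 in cHet and 967165 ± 12164 in control mice. Neither the cKO nor the cHet totals overlapped those of control mice (two-sided exact permutation p = 0.0286 for each, the smallest 4 against 4 can give). Mitochondrially encoded genes held 19.6% of the total in cKO, 17.2% in cHet and 17.3% in control mice. When libraries were rescaled to equal totals without those genes, 6 members were called and all were lower (Hnrnpa1, Hnrnpdl, Hnrnph1, Hnrnpr, Hnrnpu and Srsf2). In that setting 8.48% of all genes were called, 5.39% lower and 3.10% higher. Srsf9 and Hnrnpa0 were no longer called, though still positive. That rescaling moved the median of all genes to -0.04, against 0.01 as deposited.

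The 20 hnRNP genes summed to 3079 ± 27.5 TPM in cKO, 3138 ± 65.4 TPM in cHet and 3147 ± 22.3 TPM in control mice (SD, n = 4 each). The 11 SR genes summed to 1082 ± 11.2 TPM in cKO, 1071 ± 31.7 TPM in cHet and 1100 ± 15.4 TPM in control mice. The hnRNP sum was 3047 to 3111 TPM in cKO mice and 3115 to 3167 TPM in control mice, with no overlap, while the SR sums of cKO (1069 to 1096 TPM) and control (1085 to 1118 TPM) overlapped. As a share of the library total, hnRNP genes made up 0.295% to 0.301% in cKO, 0.304% to 0.318% in cHet and 0.323% to 0.330% in control mice. SR genes made up 0.102% to 0.106% in cKO, 0.102% to 0.112% in cHet and 0.111% to 0.117% in control mice. On that scale neither family overlapped between cKO and control mice. The sums are led by the most abundant genes and carry no test. Rescaling moved their differences. For cKO minus control the hnRNP difference was -67.8 TPM as deposited and -183 TPM with equal totals without mitochondrially encoded genes, and the SR difference was -18.1 TPM as deposited and -58.4 TPM in that setting. For cHet minus control the hnRNP difference was -8.69 TPM as deposited and -127 TPM in that setting, and the SR difference was -28.2 TPM as deposited and -69.2 TPM.

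**Figure D3:**
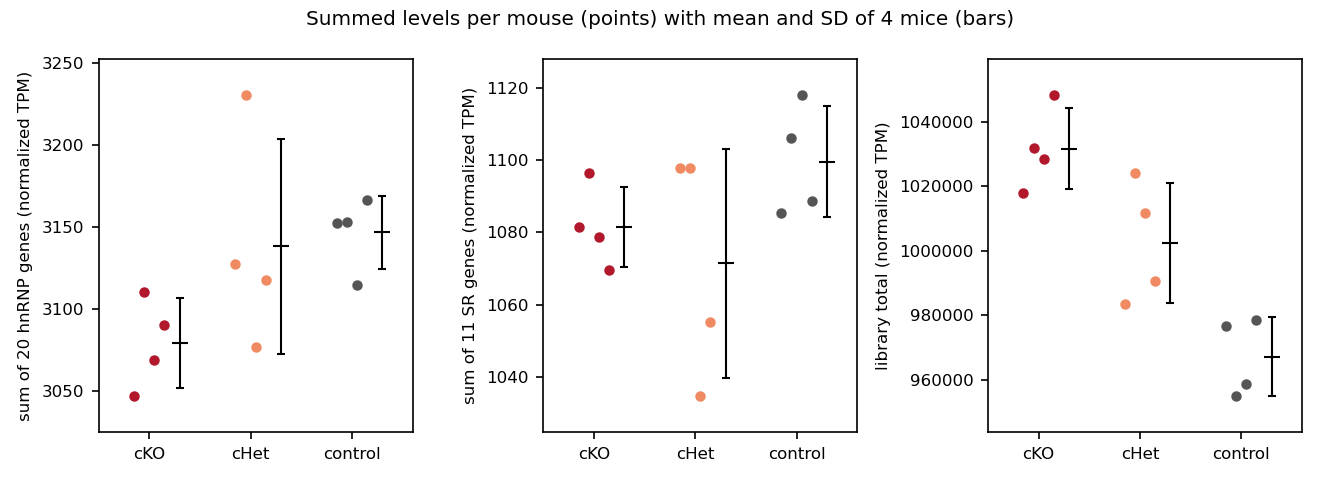
Summed normalized TPM of the 20 hnRNP genes, of the 11 SR genes and of the whole library per mouse (points), with mean and SD of 4 mice (bars), cKO left of cHet left of control, on axes that do not start at 0. The hnRNP sum was 3079 TPM in cKO and 3147 TPM in control mice, while the library total was higher in cKO than in control mice.

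Between cHet and control mice, 0 members were called, against 0% of all genes. Of the 31 members, 7 had an unadjusted p under 0.05, a larger share than the 11.3% of all genes. Without control replicate 1 the count was again 0. The 5 members with the smallest p were Hnrnpu, Hnrnpdl, Srsf9, Hnrnpf and Hnrnpc. Hnrnpu had a log2 change of -0.15 ± 0.03 (limma adjusted p = 0.129) and Hnrnpdl of -0.23 ± 0.05 (limma adjusted p = 0.159). Srsf9 had 0.11 ± 0.04 (limma adjusted p = 0.339), Hnrnpf 0.10 ± 0.04 (limma adjusted p = 0.378) and Hnrnpc, which binds U tracts and represses cryptic exons, 0.14 ± 0.05 (limma adjusted p = 0.378). Hnrnpu, Hnrnpdl, Srsf9 and Hnrnpf did not overlap between the groups, 12.9% of members against 6.23% of all genes. Of these, 2 lay higher in cHet mice, against 4.12% of all genes, and 2 lower, against 2.10%.

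The cHet values come from mice whose Tardbp level overlapped that of control mice. Hnrnpdl averaged 155.9 ± 6.64 TPM in cKO, 152.9 ± 11.6 TPM in cHet and 179.4 ± 4.33 TPM in control mice. Hnrnpu averaged 133.5 ± 2.59 TPM in cKO, 129.8 ± 4.01 TPM in cHet and 144.4 ± 3.61 TPM in control mice. The comparisons of cKO and of cHet with control share the control mice, so that their values are not independent. For 29 of the 31 members the whole-cord interval between cHet and control lay within 20% in either direction, with bounds from -21.5% (Hnrnpd) to 19.3% (Hnrnpc).

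Between cKO and cHet mice, both of which carried Cre, 1 of the 31 members (3.23%) passed, against 5.01% of all genes tested. Hnrnpa0 rose by 0.23 ± 0.06 on the log2 scale, or 16.9% between the means (limma adjusted p = 0.0481), against 2.41% of all genes called higher. No member was called lower, against 2.61% of all genes. The call of Hnrnpa0 was lost in 12 of 19 alternative settings. At an unadjusted p under 0.05 there were 5 of the 31 members, a share close to the 18.2% of all genes. Hnrnpa0 and Hnrnpa3 lay higher and Hnrnph1 lower in cKO mice without overlap, 9.68% of members against 11.5% of all genes (6.14% higher and 5.33% lower). Hnrnpdl, Hnrnpu and Srsf9 differed little between cKO and cHet, with log2 changes of 0.03 ± 0.05, 0.04 ± 0.03 and 0.06 ± 0.04 and limma adjusted p of 0.83, 0.535 and 0.466. Their 95% intervals were -0.08 to 0.14, -0.02 to 0.11 and -0.03 to 0.15.

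**Figure D4:**
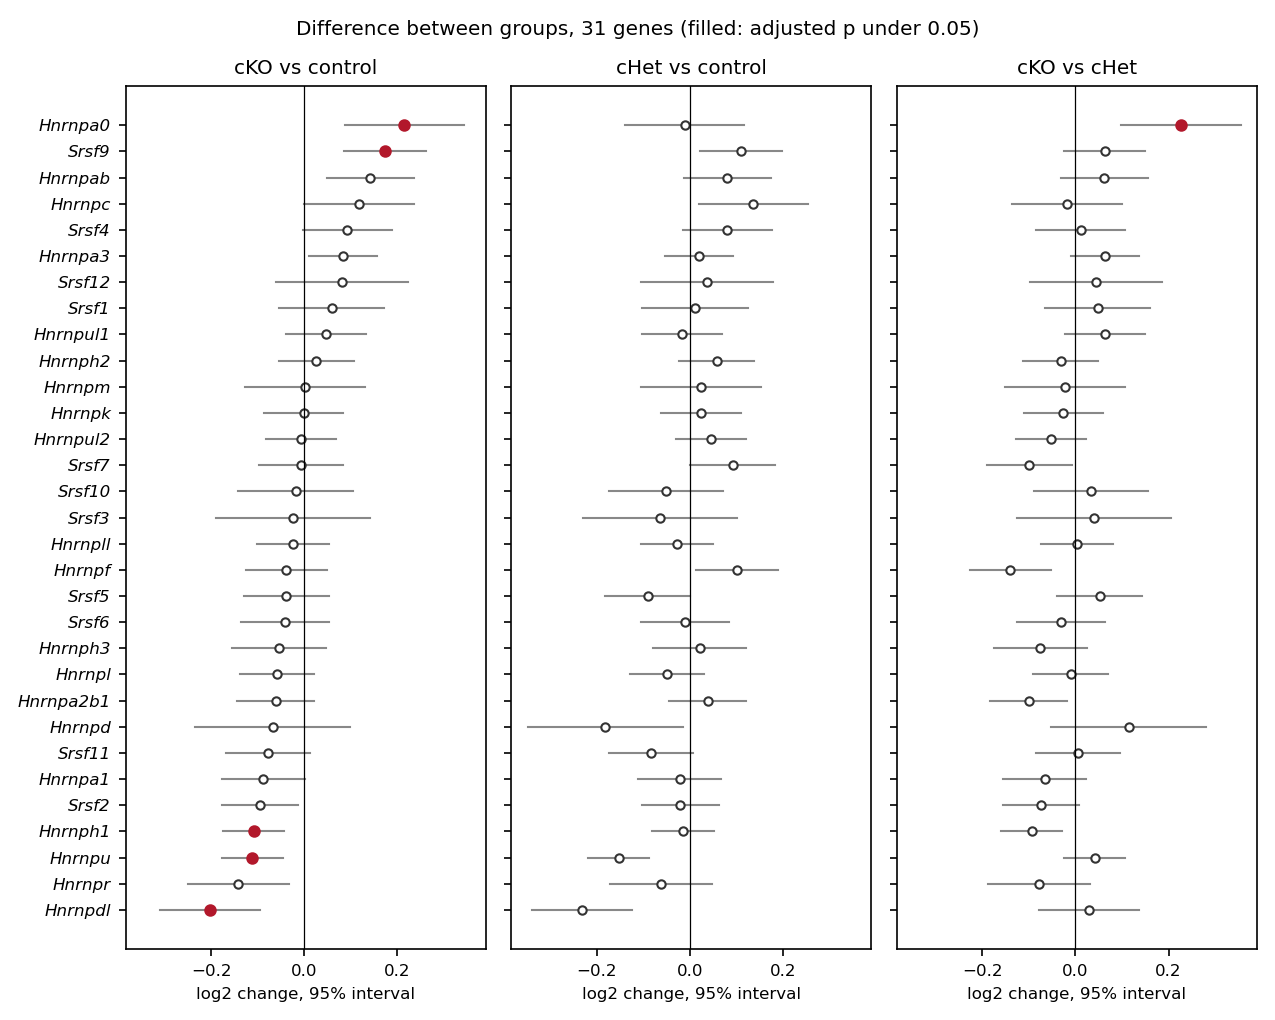
Log2 change with unadjusted 95% interval of the 31 genes for cKO against control, cHet against control and cKO against cHet, ordered by the first, with filled points for adjusted p under 0.05. Filled points are 5 in the first panel, 0 in the second and 1 in the third, and no change reaches 0.25 in size.

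The authors' own models called some of the same members. In the authors' deposited table for cKO against control, 5 of 31 members (16.1%) had a likelihood ratio q under 0.05, against 9.42% of the genes listed. They were Hnrnpa0 (q = 0.000932), Hnrnpdl (q = 0.00461), Hnrnpab (q = 0.00636), Srsf9 (q = 0.0288) and Hnrnph1 (q = 0.0463) in the authors' deposited table, and Hnrnpu had q = 0.0523. By the Wald test of the authors' deposited table, 4 of 31 members (12.9%) passed, against 10.2% of the genes listed. In the authors' deposited table for cHet against control 0 members passed the likelihood ratio test, against 0% of the genes listed. By the Wald test 1 of 31 members (3.23%) passed, against 0.156%. That member was Hnrnpdl, with a Wald q of 0.0485 in the authors' deposited table. In the authors' deposited table for cKO against cHet, Hnrnpa0 had a likelihood ratio q of 0.118, and 0 members passed by either test, against 3.78% of the genes listed by the likelihood ratio test and 4.94% by the Wald test. The calls of limma and of the authors' deposited tables differ on Hnrnpab (called there by both tests, not by limma), Hnrnpu (called by limma alone) and Hnrnph1 (called by limma and the likelihood ratio test, with a Wald q of 0.0589 in the authors' deposited table). They also differ on Hnrnpdl between cHet and control, which only the Wald test called, and on Hnrnpa0 between cKO and cHet, which only limma called.

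The relatives that carry other names moved more in single cases than any member did. Of 18 hnRNP-like genes, 2 rose and 1 fell between cKO and control mice, and the median log2 change was 0.01. The list holds Tardbp itself, the gene deleted by design, so its share called is not that of relatives alone. With Tardbp, 16.7% of the list was called, against 9.00% of all genes, 5.75% higher and 3.25% lower. Celf1, a binder of GU-rich elements in mRNA, rose, with 21.4 ± 1.18 TPM in cKO, 14.9 ± 0.532 TPM in cHet and 15.8 ± 1.32 TPM in control mice. Its log2 change was 0.43 ± 0.06 against control (limma adjusted p = 0.00121) and 0.51 ± 0.06 against cHet (limma adjusted p = 0.000569). Pcbp1, a poly(C)-binding relative of Hnrnpk, rose by 0.18 ± 0.04 on the log2 scale (limma adjusted p = 0.00775), and Tardbp was the gene that fell.

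Of 18 SR-related genes and partners, 0 rose and 3 fell in cKO mice against control, with a median log2 change of -0.07. The share called was 16.7%, against 9.00% of all genes. Son, a large nuclear speckle scaffold, averaged 148.6 ± 6.06 TPM in cKO and 176.5 ± 7.53 TPM in control mice (log2 change -0.25 ± 0.04, limma adjusted p = 0.00172). Luc7l2, a partner of U1 snRNP, fell by 0.19 ± 0.03 on the log2 scale (limma adjusted p = 0.00571) and Snrnp70, a U1 protein, fell by 0.19 ± 0.05 (limma adjusted p = 0.0404, lost in 11 of 20 alternative settings). Son was also the 1 gene of the list called between cKO and cHet (5.56%, against 5.01% of all genes). There it fell by 0.15 ± 0.04 (limma adjusted p = 0.0467, lost in 11 of 19 alternative settings). Of 11 kinases and import factors of SR proteins, Srpk3 alone passed (9.09%, against 9.00% of all genes). It fell, with 8.20 ± 2.05 TPM in cKO and 11.98 ± 0.590 TPM in control mice (limma adjusted p = 0.0375), a call lost in 10 of 20 alternative settings.

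Of 23 core snRNP genes 0 were called between cKO and control mice, against 9.00% of all genes. The smallest p was that of Snrpa1 (log2 change 0.23 ± 0.07, limma adjusted p = 0.0778). Of 14 genes of nonsense-mediated decay 0 were called, and the smallest p was that of Magoh (log2 change 0.17 ± 0.06, limma adjusted p = 0.0807). At an unadjusted p under 0.05 there were 2 genes in either list, against 22.8% of all genes. Of 18 tested regulators with tissue-restricted splicing roles, Rbfox3 rose by 0.21 ± 0.03 (limma adjusted p = 0.00285) and Qk fell by 0.24 ± 0.04 (limma adjusted p = 0.00236). The share called was 11.1%, against 9.00% of all genes. Qk acts in myelinating glia and Rbfox3 marks neurons. Without control replicate 1, 2 SR-related genes fell (Son and Luc7l2), 0 kinases and import factors were called, and the other lists gave equal counts. Between cHet and control mice 0 genes of these lists were called by limma, with or without that library. At an unadjusted p under 0.05 there were 5 of 18 hnRNP-like genes, 4 of 18 SR-related genes and 2 of 11 kinases and import factors. There were also 1 of 23 core snRNP genes, 0 of 14 decay genes and 1 of 18 tissue-restricted regulators. The share of all genes was 11.3%. Between cKO and cHet mice Rbfox3 rose by 0.13 ± 0.03 (limma adjusted p = 0.0445, lost in 12 of 19 alternative settings) and Qk fell by 0.27 ± 0.04 (limma adjusted p = 0.00138).

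Markers of several cell types differed between the same groups. Of all genes, 9.00% were called between cKO and control mice, 5.75% higher and 3.25% lower. The 8 oligodendrocyte markers summed to 17155 to 19543 TPM in cKO, 20660 to 24401 TPM in cHet and 20625 to 21567 TPM in control mice, and 6 of 8 fell in cKO against control. The 7 microglial markers summed to 306.0 to 335.4 TPM in cKO, 245.0 to 263.4 TPM in cHet and 241.8 to 252.5 TPM in control mice, and 5 of 7 rose. Of 8 astrocyte markers 3 rose and 2 fell, with a sum of 3673 to 4027 TPM in cKO, 3119 to 3240 TPM in cHet and 3079 to 3288 TPM in control mice. Gfap, whose promoter drives the Cre, rose by 0.24 ± 0.06 on the log2 scale against control (limma adjusted p = 0.0386, lost in 12 of 20 alternative settings). Of 7 neuronal markers 3 rose, with a sum of 3240 to 3423 TPM in cKO, 3129 to 3338 TPM in cHet and 3030 to 3216 TPM in control mice. Of 3 fibroblast markers Dcn rose by 0.59 ± 0.09 on the log2 scale (limma adjusted p = 0.00165), and 0 markers of endothelial and mural cells, ependymal cells, oligodendrocyte precursors, blood, Schwann cells or muscle were called. Only 1 of 3 Schwann cell markers and 1 of 3 muscle markers reached 1 TPM and could be tested. Without control replicate 1, 3 microglial markers rose, 2 astrocyte markers rose and 2 fell, and the counts of the other marker lists were equal to those above. The part of these cell types in the members' changes was not tested.

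Between male and female mice, with control replicate 1 left out because it goes against its label, limma called 0 members and 10 of all genes, among them all 4 Y-linked genes. At an unadjusted p under 0.05 there were 2 members. In the test of whether the difference between cKO and control differed between males and females, 0 members were called and 0 had an unadjusted p under 0.05, while 1 of all genes was called and 592 had an unadjusted p under 0.05. That test includes control replicate 1; without it 0 genes were called. In males and females, as labelled, the log2 change of Srsf9 was 0.17 and 0.18, that of Hnrnpa0 0.23 and 0.20 and that of Hnrnpdl -0.20 and -0.21. With 2 mice per sex and group, large differences between sexes could be missed.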

How the data were processed

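RNA was sequenced from spinal cord of 12 mice, 4 per group, each library from a separate mouse by its label. The authors deposited normalized TPM per gene, a signal that is never negative and carries the authors' scaling between libraries. The submitters' processing notes name kallisto 0.44.0, sleuth 0.30.0 and the GRCm38 build. The annotation release and the filters are unknown, being not given in the sources used here. For each pair of groups the authors deposited q-values (adjusted p-values) of their likelihood ratio and Wald tests, and a technical variance, a score with no stated log base. The read depth is unknown, so no counting interval is given.

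Genes averaging at least 1 TPM were kept, 0.5 was added and log2 taken, and every log2 change refers to TPM + 0.5, which understates changes of low genes. A limma 3.58.1 model (R 4.3.3; lmFit, group contrasts, two-sided eBayes with trend) was fitted to all 12 mice, with Benjamini-Hochberg adjustment over 15259 genes and a call at adjusted p under 0.05. The script was tested on simulated data. Of symbols in the table, 425 have more than 1 row and 372 of these hold equal values (difference under 0.001 TPM).

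The named genes are Tardbp and Gfap, all called members, the 5 smallest p where none is called, the 3 highest and 3 lowest of each family, members without overlap and up to 3 called genes per other list; relatives of a called gene are named beside it and were chosen after their values were seen, as were the UG runs, promoters and transcript classes. The members and lists were chosen with earlier results of these data known. Alternatives were the pseudocount, the filter, the scaling, sex as a covariate, the prior, repeat rows, the mice fitted and leaving out each mouse.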

Additional observations from a re-analysis of the deposited data

Results flagged for a closer look

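Of 96 groups of 4 mice examined, 5 held a mouse whose gap to the nearest other was above the 95% critical value of Dixon's test, and chance gives about 1 group in 20. Srsf3 had 87.3 TPM in cHet replicate 2, while the other 3 cHet mice had 70.9 to 72.5 TPM. Srsf10, which turns into a splicing repressor when dephosphorylated, had 53.7 TPM in cHet replicate 4, against 48.3 to 49.0 TPM in the other cHet mice. Srsf10 also had 47.8 TPM in control replicate 4, against 52.5 to 53.4 TPM in the other control mice. Hnrnpll had 29.2 TPM in cHet replicate 4, against 30.4 to 30.6 TPM in the other cHet mice. Tardbp had 140.5 TPM in cKO replicate 4, against 150.2 to 151.2 TPM in the other cKO mice.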

How the results depend on the processing

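Between cKO and control mice the count of called members, 5 as reported, was 3 with no filter on low values, 3 with sex as a covariate, 2 without the trend in eBayes, 4 after median-of-ratios rescaling (without Hnrnpa0), 6 with only the 8 mice of the comparison (with Hnrnpab) and 0 to 3 when 1 mouse was left out (3, 0, 0 and 2 without cKO replicates 1 to 4, and 2, 0, 2 and 1 without control replicates 1 to 4). It was 1 (Hnrnph1) without control replicate 1 and with sex as a covariate, a setting chosen after seeing the data, as were using each symbol once, the list counts, overlap and test between the sexes without that mouse, and the 22 promoter windows. Genes called, 1374 as reported, ran from 814 to 1143 when 1 mouse was left out, the fewest when cKO replicate 2 was left out, followed by cKO replicate 4 (890) and control replicate 2 (907). They split into 878 higher and 496 lower as deposited, 734 and 545 after median-of-ratios rescaling, and 473 and 822 after rescaling to equal totals without mitochondrially encoded genes. Between cHet and control mice 0 genes were called, 2 with no filter and 0 to 1 when 1 mouse was left out (1 without control replicate 2). Between cKO and cHet mice the count of members, 1 as reported, was 0 with no filter, 0 after median-of-ratios rescaling, 2 (Hnrnpa0 and Hnrnpf) after rescaling to equal totals without mitochondrially encoded genes, 0 without the trend, 0 with only the 8 mice of the comparison and 0 to 1 when 1 mouse was left out; with sex as a covariate or without cKO replicate 2 the called member was Hnrnpf. The sex interaction called 1 gene, and 0 without control replicate 1. The log2 change of Tardbp between cHet and control ran from -0.025 to 0.033 when 1 mouse was left out and reversed to 0.033 without cHet replicate 4, to 0.025 without control replicate 1 and to 0.022 without that mouse and with sex as a covariate. Fewer mice enter the settings that leave 1 out; for the others the cause was not tested. No call of a member reversed in any of these settings. The difference of the hnRNP sum, -67.8 TPM for cKO minus control, became -97.1 TPM after median-of-ratios rescaling. No paired analysis was possible because each library came from a separate mouse and the labels give no pairing of mice between groups.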
